A study of Mus musculus with 5 samples.

Results

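Conventional natural killer (NK) cells of the obstructed mouse kidney were taken from 2 single-cell libraries, in which 351 of 12172 kept cells met the selection described here. Of these, 177 came from 6960 kept cells of a kidney library labelled PD-1 knockout (2.54%, exact binomial 95% interval 2.19 to 2.94%) and 174 from 5212 kept cells of a kidney library labelled wild type (3.34%, 2.87 to 3.86%). Kept cells held 500 or more unique molecular identifiers (UMIs, tags that count captured RNA molecules) from 250 or more genes, of which mitochondrial UMIs made up no more than 20%. It was called an NK cell when it held no UMI of the T cell receptor chains Cd3d, Cd3e and Cd3g, at least 1 UMI of the NK receptor genes Ncr1, Klrb1c, Klrd1 and Klre1, and at least 2 UMIs of Eomes, Klra8 and Itga2 together. The selection therefore used measured values of these 10 genes, and their levels are given only as a description.

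Conventional NK cells are circulating cytotoxic lymphocytes that kill stressed or infected cells with perforin and granzymes and release interferon gamma and chemokines. They depend on the T-box factor Eomes, carry the integrin subunit Itga2 (CD49b), and are set to the host's MHC class I through inhibitory Ly49 receptors and the NKG2A receptor. Type 1 innate lymphoid cells (ILC1s) share many NK receptors with them, but are tissue-resident, lack Eomes and bear markers such as Il7r (the IL-7 receptor), Cxcr6 and Itga1.

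The series profiled sorted innate lymphoid cells of kidney and group 3 innate lymphoid cells of small intestine of male mice aged 8 to 10 weeks on the BD Rhapsody system, with 1 library per group. The first kidney library came from the strain B6.Cg-Pdcd1tm1.1Shr/J at 3 days after unilateral ureteral obstruction (UUO), in which the left ureter is tied and cut, and the second from mice labelled wild type at 14 days after UUO. They are called KO-labelled and WT-labelled here. Both kidney libraries were made after obstruction and no unobstructed kidney was profiled, and the sources used here do not say how many mice went into a library. Genotype and day differ together between the 2 libraries and cannot be told apart. There are no replicates, so no difference was tested, and every interval covers counting error only. The labels also give a digestion protocol for pulmonary artery, which does not match the organs named. A wild-type kidney library at 3 days was not analysed here beyond its cell barcodes.

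The kept kidney cells had median depths of 2064.5 UMIs in the KO-labelled and 1824 UMIs in the WT-labelled library. The NK cells had medians of 2179 and 1779 UMIs and 1225 and 1050.5 genes, and their pooled depth was 418548 and 339280 UMIs. CD3-bearing cells, with at least 2 CD3 UMIs, were 59.4% of KO-labelled and 58.9% of WT-labelled kept cells, against the label of innate lymphoid cells. The WT-labelled library shared 72 of its 5282 barcodes with any of 3 other barcode lists of the series, and 4 of its NK cells carried a shared barcode. Barcodes of the KO-labelled library were not analysed here. In the intestinal libraries 6 of 4946 cells after UUO and 8 of 3501 cells after sham surgery met the same selection.

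Pdcd1, which encodes PD-1 and is the gene named in the knockout strain, did not follow the strain label. Pooled NK cells held 29 Pdcd1 UMIs in the KO-labelled kidney and 1 in the WT-labelled kidney, or 69.3 and 2.95 CPM, the UMIs of a gene scaled to a fixed total of UMIs per pool. The log2 ratio was 4.56, with an interval of 1.96 to 9.91 set by the single UMI of the WT-labelled pool. Some Pdcd1 RNA was present in 12.4% of KO-labelled and 0.575% of WT-labelled NK cells, and in 6.32 and 0% of cells after each cell was thinned to 1000 UMIs. Taking 3 cells as the limit of a count of 0, up to 1.83% of the 164 thinned WT-labelled cells could carry a Pdcd1 UMI at that depth, which sets no limit on cells that express the gene. B cells, which served as a gauge of free RNA, had 9.33 and 0 CPM. CD3-bearing cells had 218 CPM in the KO-labelled and 160 CPM in the WT-labelled library. The counts are given per gene and do not show which part of it was read. The labels do not give the deleted part, so this RNA does not check the genotype.

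Of the 5 markers given for conventional NK cells, Eomes, Klra8 and Itga2 chose the cells and say nothing further on the label. Eomes had 965 CPM in KO-labelled and 1155 CPM in WT-labelled NK cells, and a UMI in 81.4 and 81.6% of them. Klra8, the activating receptor Ly49H, had 1132 and 1559 CPM and a UMI in 49.2 and 56.9% of cells, and Itga2 had 270 and 242 CPM. Gzma and Prf1, the markers that the selection did not use, encode granzyme A and perforin. Gzma had 3856 CPM (3670 to 4049) in KO-labelled and 3702 CPM (3500 to 3912) in WT-labelled NK cells, and a UMI in 74.0 and 69.5% of them (65.5 and 62.8% after thinning). Prf1 had 478 CPM (414 to 549) and 510 CPM (437 to 592). A UMI of neither gene was found in 30 of 177 and 31 of 174 NK cells. B cells had 18.7 and 0 CPM of Gzma, and 0 and 8.05 CPM of Prf1. In the GRCm38 annotation Gzma lies on the minus strand of chromosome 13, at 113093825 to 113100981, Prf1 on chromosome 10, at 61297833 to 61304680, and Eomes on chromosome 9, at 118478212 to 118486132.

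At the edge of the selection, 48 KO-labelled and 42 WT-labelled NK cells held exactly 2 UMIs of Eomes, Klra8 and Itga2, and 104 and 81 cells with 1 such UMI fell just outside. A further 61 and 27 cells met every other condition but held 1 CD3 UMI, 195 and 53 held 2 or more, and 14 and 3 had no UMI of the 4 NK receptor genes. All 3 of Eomes, Klra8 and Itga2 were detected in 16 of 177 and 27 of 174 NK cells.

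The nearest cells in the same libraries were the NK-receptor cells without CD3 that held no UMI of Eomes, Klra8 or Itga2, 758 in the KO-labelled and 622 in the WT-labelled kidney, with medians of 2243 and 1824 UMIs. They are a mixture, since they also held B cell, plasmacytoid and ILC2 genes, and they are called Eomes-null cells here. Among genes outside the selection with at least 100 UMIs over both kinds of cell and 50 CPM in the higher kind, in each library, 3032 could be compared. Of these, 21 (0.693%) were 2 times or more higher in NK cells in both libraries, and 74 (2.44%) were 2 times or more lower in both. The Eomes-null pools were larger, at 1827092 and 1208751 UMIs against 418548 and 339280 UMIs of NK cells. A gene found only in Eomes-null cells thus reached 100 UMIs at a lower level than one found only in NK cells. The counts of higher and lower genes are therefore not set against each other. The 21 include Klra4, Klra7, Klra9 and Klra3, which reached 50 CPM only through the NK cells in the KO-labelled library. The 74 include Cxcr6 and Siglech, which reached it only through Eomes-null cells. Both counts thus hold genes admitted through the kind of cell where they are high, and are a description only.

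Cytotoxic genes were among the highest in NK cells. Gzma was higher than in Eomes-null cells, which had 127 CPM in the KO-labelled and 242 CPM in the WT-labelled library, by a log2 ratio of 4.92 (4.73 to 5.13) and 3.94 (3.75 to 4.13). Prf1 was higher by 1.83 (1.56 to 2.11) and 1.92 (1.60 to 2.24), and Gzmb, granzyme B, by 1.75 and 1.76. Of the 19 genes fixed as granule and death-ligand genes, 14 could be compared, and 3 were higher and 1, Gzmc, lower by 2 times or more in both libraries. The list's median log2 ratio was 0.24 in the KO-labelled and 0.16 in the WT-labelled library, beside 0.013 and -0.00080 over all genes compared.

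Among the other genes with the highest ratios, Ccr2, a chemokine receptor for entry into inflamed tissue, had 755 CPM in KO-labelled and 1144 CPM in WT-labelled NK cells against 312 and 454 CPM in Eomes-null cells, with log2 ratios of 1.28 (1.07 to 1.48) and 1.33 (1.14 to 1.52). After thinning to 1000 UMIs the ratio in the WT-labelled library was 0.997, just under 2 times. Irf8, a transcription factor of NK cell and myeloid maturation, was higher by 1.33 (1.18 to 1.47) and 1.54 (1.38 to 1.70), Scd2, a fatty acid desaturase, by 1.64 and 1.78, and the killer lectin-like receptor gene Klri2 by 1.55 and 1.95. Tyrobp, which encodes the DAP12 adaptor that Ly49H signals through, and Tigit, an inhibitory receptor, also passed 2 times in both libraries. Most genes of their lists did not: of 15 NK transcription factor genes compared, Irf8 was higher and Gata3 lower, of 14 activating receptor and adaptor genes Tyrobp was higher and none lower, and of 5 inhibitory receptor genes Tigit was higher and Ctla4 and Lilrb4a lower.

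Many ILC1 and residency genes were lower. Il7r had 798 CPM in KO-labelled NK cells against 2121 CPM in Eomes-null cells, and 324 CPM in WT-labelled NK cells against 2022 CPM. Cxcr6 was lower by log2 ratios of -2.33 (-3.22 to -1.56) and -3.38 (-4.84 to -2.23). Of 14 genes fixed as ILC1 and residency genes, 12 could be compared and 7 were 2 times or more lower in both libraries, beside 2.44% of all genes compared. The list's medians were -1.48 and -2.26, beside 0.013 and -0.00080 over all genes compared. The 7 were Il7r, Cxcr6, Rora, Tmem176a, Tmem176b, Inpp4b and Ikzf2. Cxcr6 had 34.4 CPM in KO-labelled and 38.5 CPM in WT-labelled NK cells with 2 UMIs of Eomes, Klra8 and Itga2. With 3 or more it had 33.1 and 11.5 CPM. It thus passed the minimum of 50 CPM only through Eomes-null cells, and the tally is a description only. The collagen-binding integrin Itga1 had 40.6 CPM in KO-labelled and 85.5 CPM in WT-labelled NK cells, against 86.5 and 170 CPM in Eomes-null cells. Il1rl1, the IL-33 receptor of ILC2s, had 50.2 and 8.84 CPM in NK cells against 246 and 102 CPM. Its log2 ratio in the KO-labelled library, -2.29, was -0.04 when cells of both kinds needed at least 3 NK receptor UMIs. T cell genes did not run one way. Of the 4 compared from their list, Trdc, the T cell receptor delta constant gene, was higher, by 2.68 and 2.70, and none was lower. Outside that list, the T cell receptor gamma constant gene Trgc4 was lower, by -1.54 and -2.46, and Icos by -1.08 and -1.11. Il2ra, the high-affinity IL-2 receptor chain, was lower by -2.52 (-3.13 to -1.96) and -4.30 (-6.59 to -2.74). MHC class II genes were lower as well, H2-Aa by -2.12 (-2.39 to -1.86) and -2.87 (-3.37 to -2.42). Jchain, Siglech, Il1b and Cybb, genes of plasma, plasmacytoid or myeloid cells, were at or near 0 in NK cells, and their source in the Eomes-null mixture was not tested. Siglech had no UMI in either NK pool, against 89.2 and 101 CPM in Eomes-null cells, and so passed the minimum only through the latter.

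**Figure D1:**
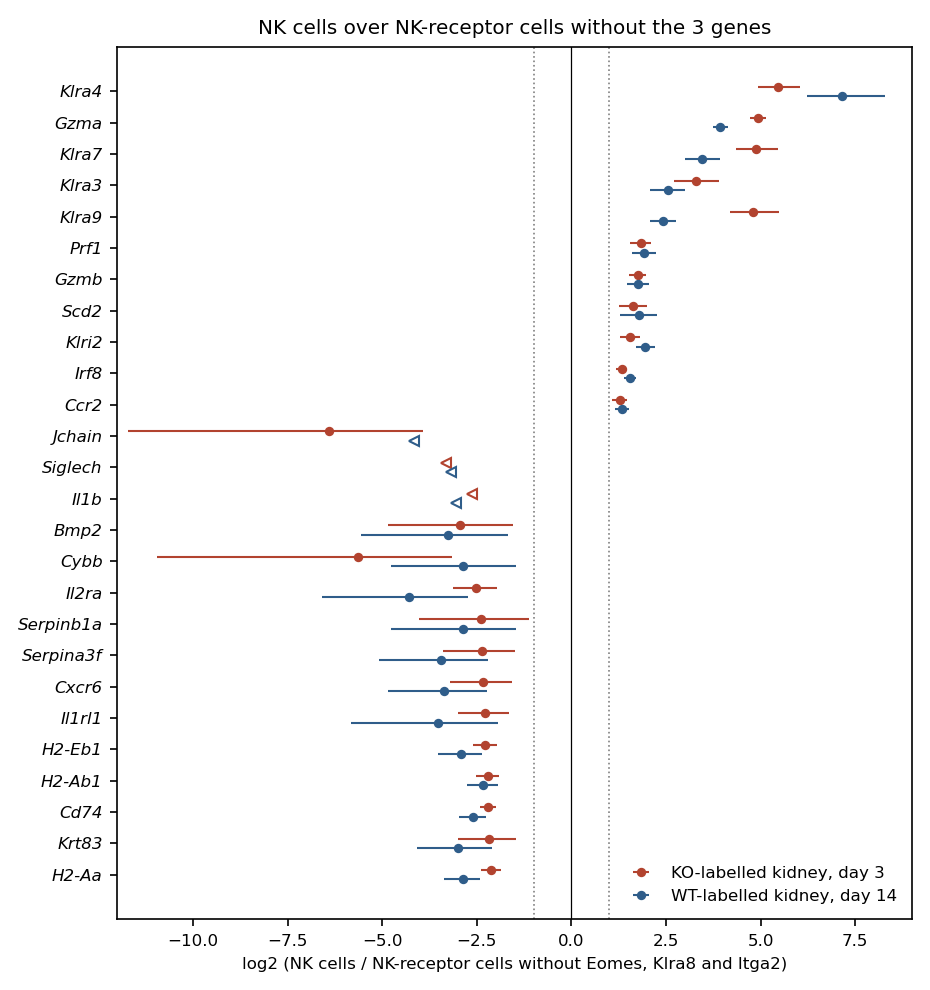
Log2 ratio of NK cells over Eomes-null NK-receptor cells on the x axis for the named genes on the y axis, KO-labelled kidney (red) above WT-labelled kidney (blue) in each row, with exact 95% counting intervals. Open triangles mark the upper interval end of genes with no UMI in the NK pool, and dotted lines mark 2 times. Klra4, Gzma, Klra7, Klra9 and Klra3 lie farthest right, and all 15 lowest genes lie left of -1 in both libraries. Klra4, Klra7, Klra9 and Klra3 passed the minimum in the KO-labelled library only through NK cells.

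Levels also differed with the count of selecting UMIs, and within the selection not in the same way in both libraries. In the KO-labelled kidney Gzma was at 127, 604, 1927, 3049 and 5729 CPM in cells with 0, 1, 2, 3 to 5, and 6 or more UMIs of Eomes, Klra8 and Itga2. In the WT-labelled kidney the same steps were 242, 1604, 3339, 4803 and 2857 CPM, so that the last step was below the one before it. Prf1 was at 267, 502 and 601 CPM in KO-labelled and 514, 594 and 427 CPM in WT-labelled cells with 2, 3 to 5, and 6 or more UMIs. Irf8 and Klra4 were higher in cells with 6 or more UMIs than in cells with 2, in both libraries. Median depth in these steps ranged from 2151 to 2243 UMIs in the KO-labelled and 1656.5 to 1942 UMIs in the WT-labelled kidney.

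Il7r ran the other way, and the 2 libraries parted at the edge of the selection. It had 2121, 1927, 1523, 745 and 355 CPM over the 5 steps in the KO-labelled kidney, and 2022, 1476, 385, 297 and 315 CPM in the WT-labelled kidney. KO-labelled cells with exactly 2 selecting UMIs thus held 1523 CPM of Il7r against 385 CPM in WT-labelled cells, whereas cells with 6 or more held 355 and 315 CPM. Cd74, the MHC class II invariant chain, had 886 and 604 CPM at 2 UMIs and 229 and 59.98 CPM at 6 or more.

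**Figure D2:**
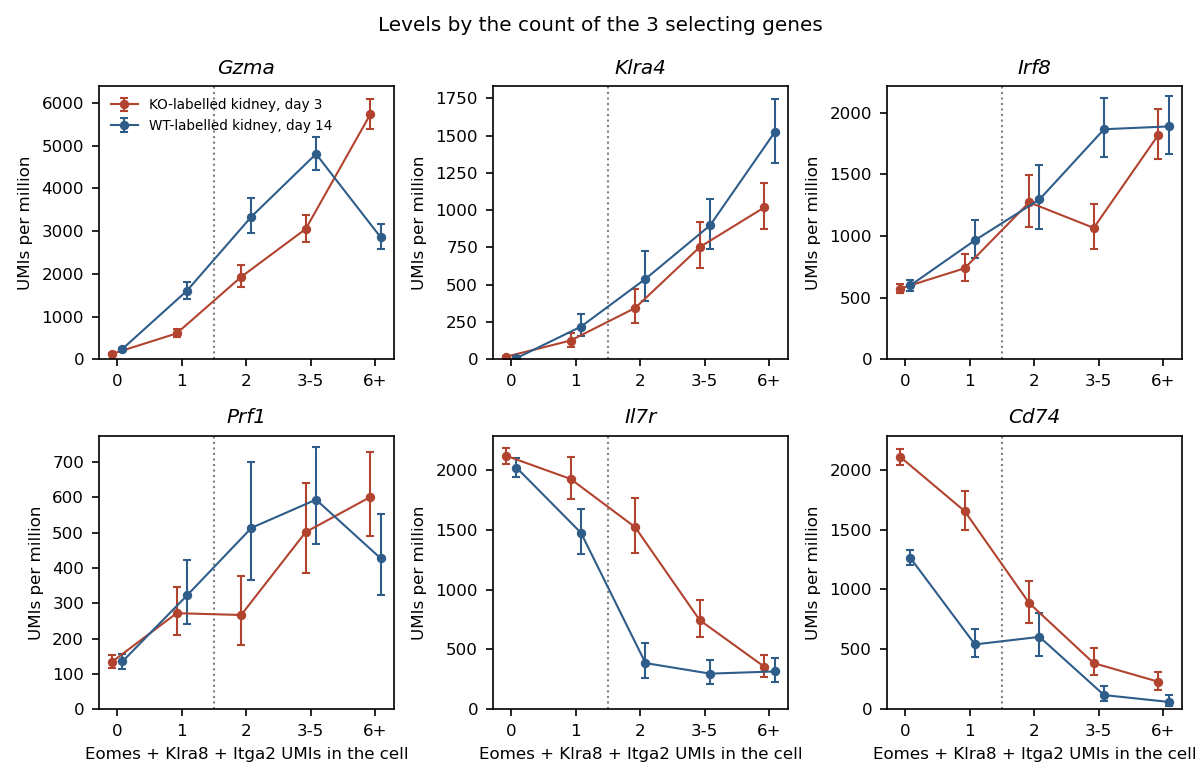
CPM (y axes, from 0) of 6 genes in cells grouped by their summed UMIs of Eomes, Klra8 and Itga2 (x axis), KO-labelled kidney in red and WT-labelled kidney in blue, with exact Poisson 95% intervals. The dotted line marks the selection's threshold of 2 UMIs. Gzma, Klra4, Irf8 and Prf1 stand higher, and Il7r and Cd74 lower, at 6 or more UMIs than at 1, outside the selection, in both libraries, and at 2 UMIs Il7r is 1523 CPM in KO-labelled against 385 CPM in WT-labelled cells.

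Ly49 receptors, encoded by the Klra genes on mouse chromosome 6, bind MHC class I or viral ligands and are each expressed by only some NK cells of a mouse. Apart from Klra8, 4 of the 12 genes of this list reached the minimum for the comparison with Eomes-null cells. They reached 50 CPM only through the NK cells in the KO-labelled library, so no count is read from them and their levels are given. Klra4 (Ly49D, an activating receptor) had 750 CPM (670 to 838) in KO-labelled and 1061 CPM (954 to 1177) in WT-labelled NK cells, against 16.97 and 7.45 CPM in Eomes-null cells. Klra7 (Ly49G) had 518 and 492 CPM against 17.5 and 44.7 CPM. Klra9 (Ly49I) had 382 and 528 CPM against 13.7 and 99.3 CPM, and Klra3 (Ly49C) had 194 and 318 CPM against 19.7 and 54.6 CPM. Klra2 and Klra17 had no UMI in NK cells of either library. Besides Klra8, 71.2% of KO-labelled and 83.9% of WT-labelled NK cells held a UMI of at least 1 Ly49 gene of the list, and 15.8 and 25.3% held 3 or more genes.

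The promoters of several of these genes share a short run of identical bases. It is shown because Klra4, Klra7, Klra3 and Klra9 had the largest ratios beside Gzma, with selection genes and T cell receptor genes left out. These genes passed the minimum in the KO-labelled library only through NK cells, and Klra8 of their family helped to choose the cells. Their rank is thus only the reason for showing the sequence, and is not read as a result. The longest run common to a promoter of each of Klra8, Klra4, Klra7, Klra9 and Klra3 in the RefSeq table (GRCm38.p6) is TTTCCTCTTTT. These promoters span 300 bases, 250 before to 50 after a listed start. Klra7 has 2 listed starts, and the window of its second start holds the letters while that of its first does not. The 5 source genes hold them by construction. Searched on both strands, the letters also lie in 3 of the other 6 Ly49 list genes with a listed promoter, and in 46 of 27025 genes in all (0.170%). All matches in Ly49 genes are on the gene's own strand, the minus strand of chromosome 6. The stretches run 5′ to 3′ with up to 40 bases on either side, end before the listed start, and have the searched letters in capitals.
Klra8, chr6:130129928-130130018: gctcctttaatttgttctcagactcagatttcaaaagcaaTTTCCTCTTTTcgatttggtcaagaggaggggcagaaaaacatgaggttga
Klra4, chr6:130067300-130067390: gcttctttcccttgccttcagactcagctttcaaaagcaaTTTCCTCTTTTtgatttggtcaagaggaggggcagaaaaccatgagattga
Klra7, chr6:130233361-130233451: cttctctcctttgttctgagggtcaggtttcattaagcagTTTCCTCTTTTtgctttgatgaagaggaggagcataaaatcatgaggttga
Klra9, chr6:130193113-130193190: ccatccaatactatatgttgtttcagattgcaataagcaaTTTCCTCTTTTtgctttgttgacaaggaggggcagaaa
Klra3, chr6:130337627-130337685: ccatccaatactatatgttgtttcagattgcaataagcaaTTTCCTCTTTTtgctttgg
Klra17, chr6:129876696-129876786: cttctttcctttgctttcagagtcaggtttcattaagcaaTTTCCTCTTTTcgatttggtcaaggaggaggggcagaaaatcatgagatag

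The shared letters did not order the genes by level. Klra17 and Klra2 carry them and had 0 UMIs in both NK pools, and Klra6 carries them with 19.1 CPM in KO-labelled and 38.3 CPM in WT-labelled NK cells. Klra1 lacks them in its listed window and had 98.0 and 218 CPM. The genes also share sequence in their transcripts, which limits how far reads can be split among them. Over the last 500 bases of their transcripts, 49.4% of the 50-base windows of Klra9 occur in another Klra gene, as do 31.5% for Klra3, 22.1% for Klra7, 13.1% for Klra8 and 4.66% for Klra4. The windows of Klra4 are shared with Klra1 and those of Klra8 with Klra9. Among the genes whose shares are given here, values of Klra9, Klra3 and Klra7 are therefore the most uncertain.

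Klra8 split the NK cells further. To keep the split apart from the selection, NK-receptor cells with at least 2 UMIs of Eomes and Itga2 were used, 48 with and 90 without a Klra8 UMI in the KO-labelled kidney and 58 and 75 in the WT-labelled kidney. Klra4 was detected in 52.1% (37.2 to 66.7%) of cells with Klra8 against 18.9% (11.4 to 28.5%) of cells without it in the KO-labelled kidney. In the WT-labelled kidney the shares were 63.8% (50.1 to 76.0%) against 30.7% (20.5 to 42.4%). Klrc1, which encodes the inhibitory receptor chain NKG2A, ran the other way, at 39.6% (25.8 to 54.7%) against 65.6% (54.8 to 75.3%) in the KO-labelled kidney and 29.3% (18.1 to 42.7%) against 64.0% (52.1 to 74.8%) in the WT-labelled kidney. Median depth was 2152.5 UMIs with and 2291 UMIs without Klra8 in the KO-labelled kidney, and 1823.5 and 1761 UMIs in the WT-labelled kidney.

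Gzma and Klra7 also went with Klra8 in the KO-labelled kidney, where Gzma was detected in 93.8% (82.8 to 98.7%) of cells with Klra8 and 54.4% (43.6 to 65.0%) without it, and Klra7 in 58.3% (43.2 to 72.4%) and 26.7% (17.9 to 37.0%). In the WT-labelled kidney the intervals overlapped, with Gzma in 72.4% (59.1 to 83.3%) and 65.3% (53.5 to 76.0%), and Klra7 in 36.2% (24.0 to 49.9%) and 34.7% (24.0 to 46.5%). Whether the 2 libraries differ in this could not be tested with 1 library each.

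**Figure D3:**
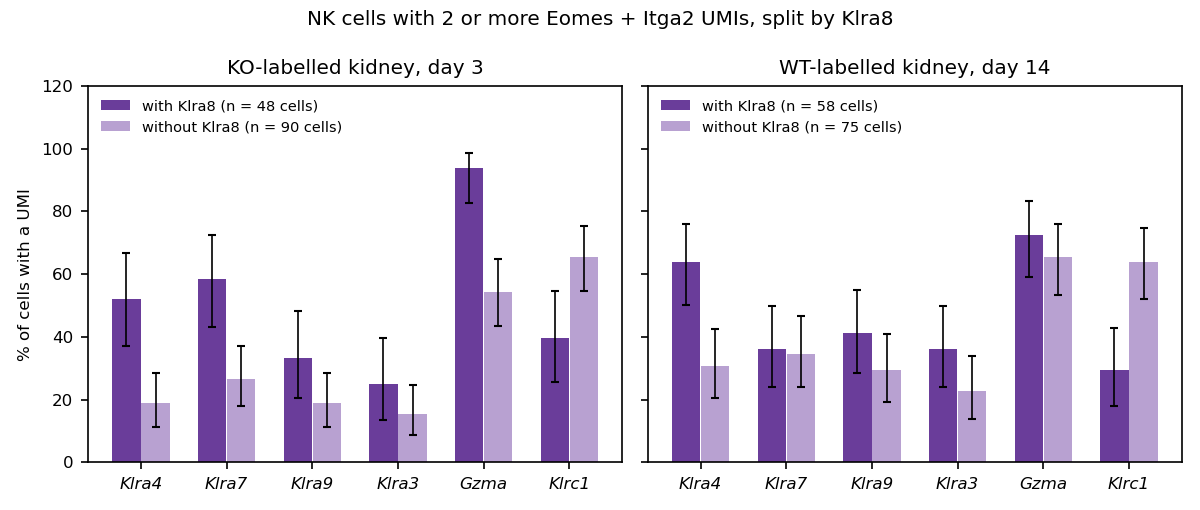
Share of cells with a UMI of each gene (y axis, %, from 0) among NK cells with at least 2 UMIs of Eomes and Itga2, KO-labelled kidney left and WT-labelled kidney right, with Klra8 in dark and without it in light purple and exact binomial 95% intervals. Klra4 stands higher and Klrc1 lower in cells with Klra8 in both libraries.

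Between the 2 libraries, granule and death-ligand genes were at like levels in the pooled NK cells. Of 1489 genes with at least 100 UMIs over both pools and at least 50 CPM in the higher, 71 (4.77%) were 1.5 times or more higher and 48 (3.22%) 1.5 times or more lower in KO-labelled than in WT-labelled NK cells, and the median log2 ratio was -0.0075. None of the 11 granule and death-ligand genes tested was on either side of 1.5 times, and their median was -0.036. The log2 ratio was 0.06 (-0.05 to 0.17) for Gzma, -0.09 (-0.39 to 0.21) for Prf1 and 0.10 (-0.17 to 0.37) for Gzmb, so all 3 intervals lie inside 1.5 times in both directions. By count of selecting UMIs the 2 libraries differed more. Gzma had 1927 CPM in KO-labelled and 3339 CPM in WT-labelled cells with 2, and 3049 and 4803 CPM with 3 to 5. With 6 or more it had 5729 and 2857 CPM. Gzmb had 611 and 501, 368 and 890, and 864 and 375 CPM over these steps. The like pooled levels thus cover differences in both directions. Fasl, the death ligand, had 198 CPM in KO-labelled and 203 CPM in WT-labelled NK cells. Gzmc, of which only 34 and 2 UMIs were counted, was not among the genes tested.

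The transcription factor and cytokine receptor lists had no gene past 1.5 times, among 14 and 12 tested, with medians of 0.0027 and 0.029. The receptor gene Il7r and the transcription factor genes Rora, Egr1, Fosb and Jun, which did pass it, stand in other lists. Tbx21 (T-bet) had 165 CPM in KO-labelled and 138 CPM in WT-labelled NK cells, a log2 ratio of 0.25 (-0.30 to 0.82). Il2rb, the receptor chain for IL-15, had 3765 and 4094 CPM. Ifng, interferon gamma, was rare in both, with 14 and 10 UMIs or 33.4 and 29.5 CPM. Among chemokine genes, Ccl5 had 5409 and 4678 CPM, and Xcl1 had 836 and 1220 CPM with a log2 ratio of -0.55 (-0.75 to -0.34).

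Some ILC1 and residency genes stood out upward. Of the 14 genes of this list only 4 were tested, with a median of 1.11 beside -0.0075 over all genes tested. Among these 4, 3 were 1.5 times or more higher in KO-labelled NK cells, beside 4.77% of all genes tested. They were Il7r, at 798 CPM in KO-labelled and 324 CPM in WT-labelled NK cells (log2 1.30, 0.98 to 1.62), Rora, at 633 and 304 CPM (1.06, 0.73 to 1.40), and Tmem176b, at 191 and 85.5 CPM (1.16, 0.53 to 1.83). The remaining gene tested, Tnfrsf9, had 215 and 194 CPM. Other genes of the list had too few UMIs, among them Itga1, which was lower in KO-labelled NK cells. After thinning to 1000 UMIs the ratios of Il7r and Rora were 0.53 and 0.38, and with a threshold of 1 selecting UMI that of Rora was 0.52, all within 1.5 times. These 3 ratios were not of the same size elsewhere: in Eomes-null cells they were 0.07 for Il7r, 0.43 for Rora and 0.45 for Tmem176b, and in CD3-bearing cells -0.63, -0.33 and -0.86. B cells had 485 and 306 CPM of Il7r and 802 and 96.6 CPM of Rora, so KO-labelled NK cells held less Rora than KO-labelled B cells.

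MHC class II genes were the other group among the 10 highest ratios. H2-Aa had 303 CPM in KO-labelled and 118 CPM in WT-labelled NK cells (log2 1.36, 0.84 to 1.91), H2-Eb1 had 198 and 79.6 CPM (1.32, 0.68 to 2.00) and Cd74 had 459 and 206 CPM (1.15, 0.75 to 1.57). CD3-bearing cells had 299 and 40.8 CPM of H2-Aa and 532 and 131 CPM of Cd74, so the KO-labelled NK cells stood near the KO-labelled CD3-bearing cells, while the WT-labelled NK cells stood above the WT-labelled CD3-bearing cells. B cells, whose own genes these are, had 3843 and 3791 CPM of H2-Aa. Of defining B cell genes, Cd79a and Ms4a1 had no UMI in either NK pool and Cd79b had 2 UMIs in the KO-labelled and 0 in the WT-labelled pool.

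The other genes among the 10 highest were Cdkn1a, the cell cycle inhibitor p21, S100a4, a calcium-binding protein, Birc2, an inhibitor of apoptosis, and Egr1, an immediate early factor. Cdkn1a had 239 CPM in KO-labelled and 79.6 CPM in WT-labelled NK cells (log2 1.59, 0.96 to 2.26), and was detected in 31.1 and 11.5% of them. Its ratio was 1.07 (0.88 to 1.26) in Eomes-null cells, 0.87 (0.75 to 0.99) in CD3-bearing cells and 1.48 (0.36 to 2.70) in B cells, so it was higher in the KO-labelled library in all 4 kinds of cell. S100a4 had 194 and 73.7 CPM in NK cells, and its ratio of 1.39 stood beside 0.71 in Eomes-null and 0.77 in CD3-bearing cells. Egr1 had 265 and 112 CPM in NK cells, with a ratio of 1.24 (0.70 to 1.82). That of Egr1 was 0.23 without the tenth of cells with most UMIs and -0.22 among cells free of Trac, Cd8, B cell and ILC2 marker UMIs.

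Ly49 genes were on the lower side in KO-labelled NK cells. Without Klra8, which chose the cells, 5 were tested, of which none was 1.5 times or more higher and 2 were lower, beside 3.22% lower over all genes, with a median of -0.50 beside -0.0075. Klra1 (Ly49A) had the lowest ratio among the 10 lowest genes tested, at 98.0 CPM in KO-labelled and 218 CPM in WT-labelled NK cells (log2 -1.15, -1.74 to -0.59). Klra3, the other called gene, had a ratio of -0.72 (-1.15 to -0.29), which was -0.17 among cells free of Trac, Cd8, B cell and ILC2 marker UMIs, -0.55 with at least 3 selecting UMIs and -0.56 without the tenth of cells with most UMIs. Klra4 had a ratio of -0.50 (-0.72 to -0.28) and Klra9 of -0.46 (-0.78 to -0.15), while Klra7 had 0.07 (-0.22 to 0.37). Klra4 had a UMI in 33.3% of KO-labelled and 49.4% of WT-labelled NK cells, and in 26.4 and 43.9% after thinning. The Klra1 ratio was -2.43 (-3.68 to -1.33) in Eomes-null cells and -2.10 (-2.40 to -1.81) in CD3-bearing cells, so it was lower in the KO-labelled library there too.

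The other lowest ratios were of the glycolytic enzyme gene Eno1, the lipid-binding protein gene Osbpl3, the membrane receptor gene Cd7, the chemokine gene Ccl4, the mitochondrial genes Atp5j and Coq10b, Etnk1, Arl6ip5 and Spag9. Cd7 had 633 CPM in KO-labelled and 1170 CPM in WT-labelled NK cells (log2 -0.89, -1.12 to -0.66), beside -1.05 in Eomes-null and -0.78 in CD3-bearing cells. Ccl4, which encodes the chemokine MIP-1 beta, had 213 and 380 CPM (-0.84, -1.24 to -0.44). Its ratio was -0.80 in Eomes-null and 1.58 in CD3-bearing cells, and -0.11 in NK cells with at least 3 selecting UMIs. Ccr2 had 755 and 1144 CPM, a ratio of -0.60 (-0.82 to -0.38), and Itgax, the integrin subunit CD11c, 346 and 554 CPM, a ratio of -0.68. Itgam (CD11b) and Klrg1, genes of late NK maturation, were too rare to pass the minimum. Itgam had 19 and 37 UMIs, or 45.4 and 109 CPM, with a ratio of -1.26 (-2.14 to -0.43), and Klrg1 had 9 and 19 UMIs. Cd27, a marker of the earlier stage, had 54 and 29 UMIs, or 129 and 85.5 CPM, with a ratio of 0.59 (-0.08 to 1.30). Of the lists for mature and immature NK cells, 3 and 8 genes were tested. Ly6c2 was 1.5 times or more higher, at 289 and 147 CPM, Il7r was higher and Cd7 lower.

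**Figure D4:**
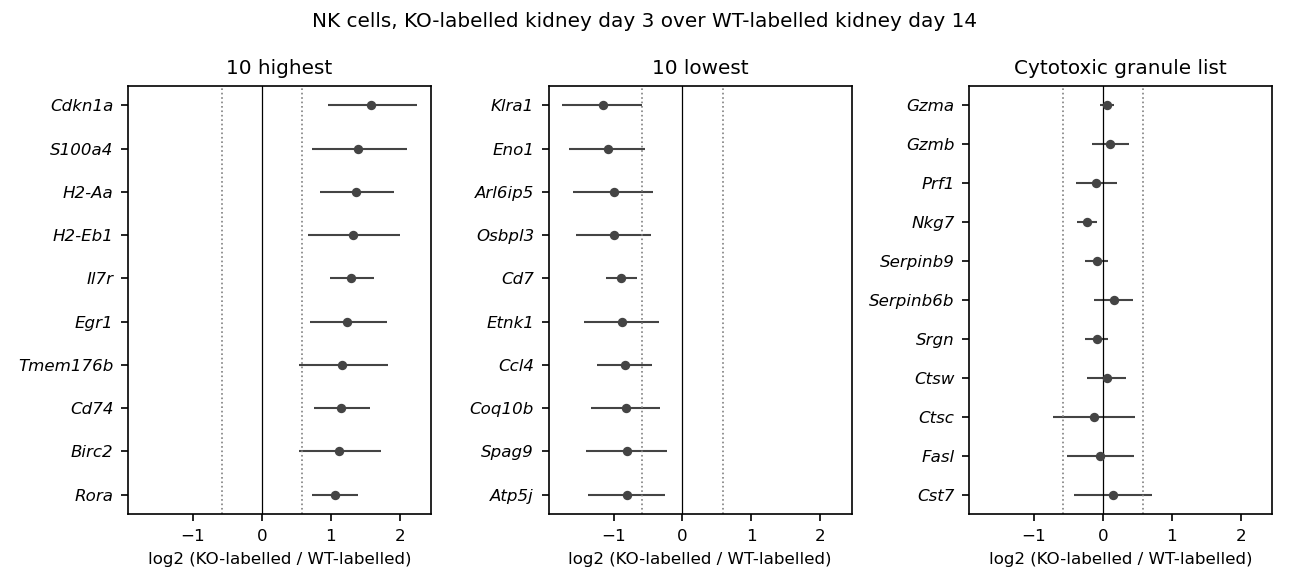
Log2 ratio of KO-labelled over WT-labelled NK cells on the x axis for the 10 highest, the 10 lowest and the 11 tested granule and death-ligand genes on the y axes, with exact 95% counting intervals and dotted lines at 1.5 times. The granule genes lie between the dotted lines, and Cdkn1a is highest at 1.59 and Klra1 lowest at -1.15.

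RNA of several other cell types was more abundant in the KO-labelled NK pool, and RNA of the myeloid list was less abundant. Trac, the T cell receptor alpha constant gene, had 191 CPM in KO-labelled and 70.7 CPM in WT-labelled NK cells, and 159 and 32.2 CPM in B cells, which do not express it. Cd8a had 17 and 0 UMIs, and the 10 kidney epithelial genes summed to 98.0 and 5.89 CPM, with 5 and 8 of the 10 at 0. The summed T cell list was 2048 CPM in KO-labelled and 1592 CPM in WT-labelled NK cells, of which Trbc1, also transcribed by NK cells, made up 774 and 716 CPM. The summed ILC2 list was 1032 and 572 CPM, or 382 and 268 CPM without Rora, which also stands in the residency list. The B cell list summed to 1238 and 634 CPM, of which MHC class II genes made up 960 and 404 CPM, and the myeloid list to 523 and 725 CPM. The part of this RNA in the ratios above was not tested. With the 86 KO-labelled and 131 WT-labelled NK cells that held no UMI of Trac, Cd8a, Cd8b1, B cell or ILC2 markers, the log2 ratio was 1.29 for Il7r, 2.77 for Cd74, 1.27 for Cdkn1a, -2.05 for Klra1 and -0.13 for Gzma.

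Clustering of the 351 NK cells alone gave 6 subclusters, which are described by their leading genes because the same cells defined both. Subcluster 0, with 36 KO-labelled and 52 WT-labelled cells, was led by Abca1, Gzmb, Gbp2, Itgam and Ccl4, with Prf1 also among its 10 leading genes, and held 6879 CPM of Gzma. Subcluster 1, with 32 and 38 cells, was led by Lyst and Traf6 and held 941 CPM of Klrc1 and 812 CPM of Klra8. Subcluster 2, with 19 and 40 cells, was led by Rel and Nfkbie, genes of the NF-kB pathway, with Xcl1 and Jun among the 10. Subcluster 3, with 32 and 15 cells, was led by the cell cycle genes Top2a, Mki67 and Stmn1, though Top2a was seen in only 9 of its 47 cells. Subcluster 5, with 19 and 21 cells, was led by Plac8 and held 2362 CPM of Klra8.

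Subcluster 4 held most of the Il7r and MHC class II RNA. It had 39 KO-labelled and 8 WT-labelled cells and was led by Ccl1, H2-Eb1, H2-Ab1, Cd74 and H2-Aa, with Tmem176a and Tmem176b also among its 10. It held 1674 CPM of Il7r, 1014 CPM of Rora and 1426 CPM of Cd74, beside 999 CPM of Gzma, 188 CPM of Klra8 and 796 CPM of Eomes, and 26 of its 47 cells had exactly 2 selecting UMIs. Its 8 WT-labelled cells held 698 CPM of Il7r and 2373 CPM of Cd74, against 1862 and 1244 CPM in its KO-labelled cells. KO-labelled Eomes-null cells held 2121 CPM of Il7r and 777 CPM of Tmem176b, and the KO-labelled cells of subcluster 4 held 546 CPM of Tmem176b. Gzma went the other way, at 1056 CPM in these cells against 127 CPM in KO-labelled Eomes-null cells. The name of conventional NK cells is therefore uncertain for this subcluster. With 39 of 47 cells from 1 library, it may stand for that library and not for a cell state. Without it, 138 KO-labelled and 166 WT-labelled NK cells were left. Il7r then had a log2 ratio of 0.46, below the 1.5 times that the full pools passed, and Tmem176b 0.49, while Rora had 0.69, Cd74 1.53, Cdkn1a 1.30 and Klra1 -0.87. Ly6c2 at 0.19, Ccl4 at -0.46 and Ccr2 at -0.47 also no longer passed 1.5 times, and ratios of Gzma and Prf1 were 0.32 and 0.12.

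**Figure D5:**
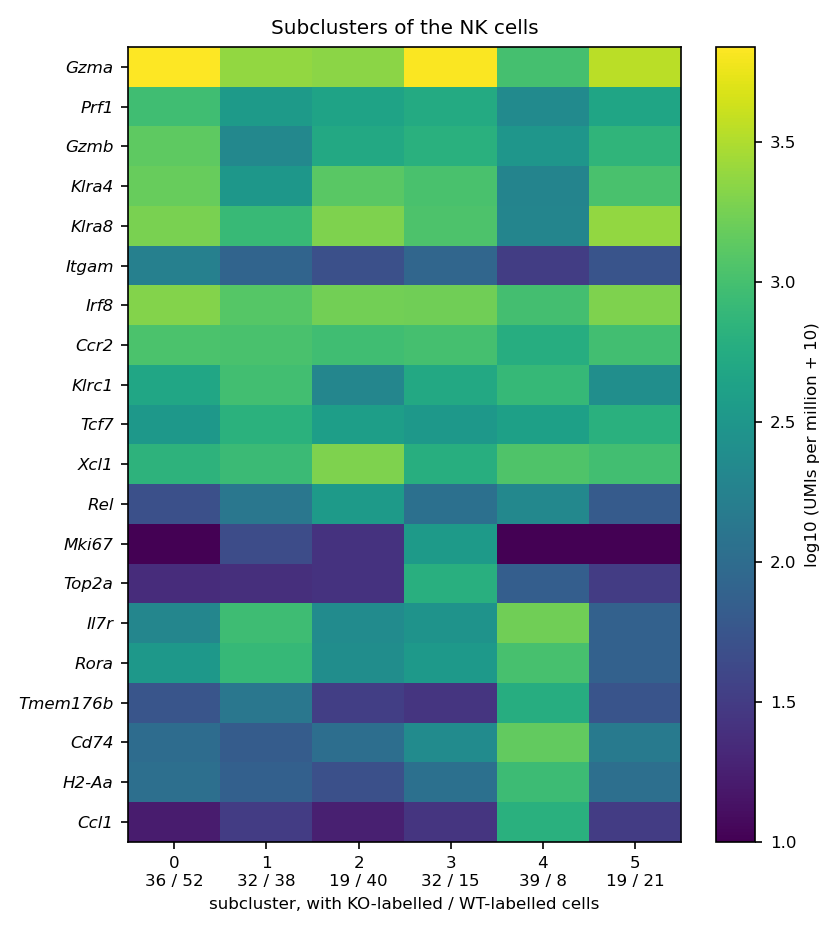
Level of 20 genes (rows) in the 6 subclusters of the NK cells (columns, with KO-labelled / WT-labelled cell numbers below), coloured by log10 (CPM + 10). Subcluster 4, with 39 KO-labelled and 8 WT-labelled cells, is bright for Il7r, Tmem176b, Cd74, H2-Aa and Ccl1 and dark for Klra8 and Klra4.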

How the data were processed

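From the series, 2 single-cell RNA libraries of kidney were analysed. The deposited values are raw UMI counts per gene and cell. For the upstream steps, mm10 as the genome and CASAVA 1.8, Seurat and UMI-tools are listed per the submitters' processing notes; which aligner was used is not given in the sources. WT-labelled counts carried no gene names and took the 31253 names shared by the other libraries: across genes, log2(CPM + 1) of NK cells correlated at 0.959 with the KO-labelled library, and at 0.182 with rows shifted by 1. Of the gene identifiers, 31107 were in the GRCm38 annotation.

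Counts were summed per library and kind of cell and divided by the total. Levels have exact Poisson, shares exact binomial and log2 ratios exact conditional binomial 95% intervals. B cells had at least 2 UMIs of B cell markers and none of CD3 or the 4 NK receptor genes. No doublet caller was run; cells under the 90th percentile of UMIs were an alternative. Subclusters used 1000 variable genes, 15 components, 15 neighbours and Leiden at resolution 0.8 (scanpy 1.11.5); TMM scaling used edgeR 4.0.16. Ratios were tested on simulated counts with counting error only, without variation between cells or animals, doublets or free RNA.

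The 10 highest and lowest ratios between libraries and the 15 between kinds of cell were named, leaving out mitochondrial, ribosomal, predicted, immunoglobulin, T cell receptor, sex-linked and haemoglobin genes, with up to 8 genes of each list; some genes so chosen are not reported here. The NK cells, lists and tests were chosen with earlier results of these data known; the 2 alternatives that leave out cells with Trac, Cd8, B cell or ILC2 marker UMIs and the subcluster led by MHC class II genes were added after seeing the data.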

Additional observations from a re-analysis of the deposited data

How the results depend on the processing

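Each value rests on 1 library per group, so cell and animal variation is unknown, and genes under 100 UMIs in the pools were mostly beyond this depth. No paired analysis was possible because each group has 1 library. The NK share moved with the threshold on Eomes, Klra8 and Itga2: with 1 UMI it was 4.04% of KO-labelled and 4.89% of WT-labelled cells, with 3 UMIs 1.85 and 2.53%, and after thinning to 1000 UMIs 1.93 and 2.54%. It stayed lower in the KO-labelled library in each. None of these varied the condition of no CD3 UMI. That condition left out 61 KO-labelled and 27 WT-labelled cells with 1 CD3 UMI, and 195 and 53 cells with 2 or more, that met every other condition. The order of the shares therefore holds only for cells without a CD3 UMI. The cells were also sorted, so these are not shares of the kidney's cells.

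Counts of genes 1.5 times or more higher and lower in KO-labelled NK cells, 71 and 48 of 1489, became 109 and 94 of 2368 with a threshold of 1 UMI, and 16 and 20 of 413 after thinning. They were 398 and 369 of 4054 with a minimum of 30 UMIs per gene, and 29 and 28 of 807 without cells holding Trac, Cd8a, Cd8b1, B cell or ILC2 marker UMIs. Without the subcluster led by MHC class II genes 35 were higher and 43 lower of 1209, and under the 90th percentile of UMIs 40 were higher and 44 lower of 1202. Leaving out all cells with T cell receptor constant, B cell or ILC2 marker UMIs left 8 and 18 cells and 35 genes, of which 2 were higher and 3 lower, too few to read. TMM scaling, equal weight per cell, 3 UMIs, 10% mitochondrial share and leaving out cycling cells kept both counts within 1.5 times.

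Against Eomes-null cells, 21 higher and 74 lower genes became 10 and 34 of 1513 after thinning and 2 and 4 of 87 without cells holding those markers, and 44 were lower of 2322 with at least 3 NK receptor UMIs.

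Among the 46 genes followed between libraries, 9 turned their sign under at least 1 alternative. Of these, Eomes, Gzma, Itga2, Prf1 and Tbx21 lay within 1.5 times in the full pools and under each alternative that gave a value, from -0.36 to 0.32. The other 4 had passed 1.5 times and turned under 1 alternative each: Cd226 was -0.10 with a threshold of 1 UMI, Klre1 0.017 and Ccr2 0.26 in the 8 and 18 cells, and Egr1 -0.22 without Trac, Cd8, B cell or ILC2 marker UMIs. The cause was not tested.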

Other observations

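Lists of general cell state were also compared between KO-labelled and WT-labelled NK cells, beside 4.77% of all genes 1.5 times or more higher and 3.22% lower. None of the 8 MHC class I genes tested passed 1.5 times, with a median log2 ratio of 0.18, and H2-D1 had 5928 CPM in KO-labelled and 4884 CPM in WT-labelled NK cells. Of 14 immediate early genes tested, Egr1 and Fosb were higher and Jun lower by 1.5 times or more, with a median of -0.036. The Fosb ratio of 0.62 was 0.04 under the 90th percentile of UMIs, 0.05 in cells free of Trac, Cd8, B cell and ILC2 marker UMIs, 0.31 after thinning and 0.10 without cycling cells, and that of Jun, -0.67, was -0.44 with a threshold of 1 selecting UMI. Of 6 glucocorticoid-induced genes tested, Il7r and Per1 were higher and none lower. Only 2 of the 18 interferon response genes had enough UMIs, and both lay within 1.5 times. Among 6 glycolytic genes tested, Ldha, lactate dehydrogenase A, had 411 and 221 CPM (log2 0.89, 0.50 to 1.31), while Eno1 was lower and Gapdh had 399 and 410 CPM. The Ldha ratio was 0.52 (0.35 to 0.70) in Eomes-null cells and 0.23 (0.15 to 0.30) in CD3-bearing cells. The clock gene Per1 had 382 and 224 CPM (0.77, 0.37 to 1.18), and a ratio of 0.52 after thinning. Of 6 heat shock genes tested, Hspe1, a mitochondrial chaperonin, was 1.5 times or more higher, at 215 and 139 CPM, with a ratio of 0.63 that was 0.37 with a threshold of 1 selecting UMI.

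Cycling genes were rare in the NK cells. Mki67 was detected in 3.39% of KO-labelled and 2.87% of WT-labelled NK cells and Top2a in 8.47 and 5.17%, or 2.87 and 1.83% for Mki67 and 5.17 and 2.44% for Top2a after thinning to 1000 UMIs. Of 4 cell cycle genes tested, Tubb5, a tubulin, was higher in KO-labelled NK cells, at 349 and 221 CPM. Cells that met the NK selection but held 2 or more CD3 UMIs were 195 in the KO-labelled and 53 in the WT-labelled kidney, beside the 177 and 174 NK cells without CD3.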
